A study of Mus musculus with 78 samples.

Results

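The 9 primitive endoderm genes described here were taken by name: the transcription factors Gata4, Gata6, Sox17, Sox7 and Foxa2, the endocytic adaptor Dab2, the receptor tyrosine kinase Pdgfra, and Amn and Cubn, which encode the subunits of the cubam receptor. They are 9 of the 55401 genes in each of 3 tables of read counts. All cells were mouse embryonic stem cells (mESCs) of the E14TG2a line, in which both copies of Zfp143 carry an FKBP degradation tag with 2xHA, P2A and eGFP; the control cells carried the tag too, and the study worked with homozygous clones whose number per experiment is not given in the sources used here. Cells were given 500 nM dTAG-V1, the small molecule that sends the tagged protein for degradation, or its solvent DMSO. One table held TT-seq, which captures RNA made during a short 4-thiouridine pulse, with DMSO and with dTAG-V1 for 2 h, 6 h or 24 h. Another held RNA-seq with DMSO and with dTAG-V1 for 24 h, 48 h or 72 h. The remaining table held RNA-seq after 24 h of DMSO or dTAG-V1, and after a further 24 h in which retinoic acid (RA) was present and the agent was kept, so that the cells labelled dTAG + RA had been depleted for longer than those labelled dTAG. The 2i medium held LIF and inhibitors of MEK and GSK3; RA was given in N2B27 without them, and no library had the new medium without RA, so the effect of RA and that of the medium cannot be told apart. Each table held 8 libraries, 2 per group.

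Primitive endoderm is the extraembryonic layer that forms beside the pluripotent epiblast in the blastocyst and gives rise to visceral and parietal endoderm. In the inner cell mass, FGF signalling through MEK and ERK favours Gata6 over Nanog, and Sox17, Gata4 and Sox7 follow; cultured stem cells treated with RA are long known to switch on parts of the same set. Dab2, cubilin and amnionless serve the heavy endocytosis of visceral endoderm, where amnionless anchors cubilin at the membrane, and Pdgfra marks the primitive endoderm lineage. Several of these genes also work in other tissues, Foxa2 and Sox17 in definitive endoderm and Pdgfra in mesoderm among them.

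The tables held 9721568 to 16532077 counts per TT-seq library, 10261851 to 15316700 per library of the depletion course and 13890761 to 27089033 per library of the RA experiment. Values are CPM, that is counts scaled to a common library size, with TMM factors. No library pair agreed within sampling noise. Replicate differences were set against counting noise as a chi-square per gene. It was 31.2 for the DMSO pair of the depletion course and 1.6 to 2.01 for its dTAG pairs. The median absolute log2 differences of these pairs lay closer, at 0.099 for DMSO and 0.083 to 0.098 for dTAG. The Zfp143 transcript, which does not report on loss of the tagged protein, was at 34.9 to 44.8 CPM in the RNA-seq libraries of DMSO arms and at 89.3 to 111 CPM in those of dTAG arms. The pluripotency markers were the most abundant of the 10 marker lists used here, at 6643 to 6722 CPM summed over 12 genes in DMSO of the depletion course, where the 9 primitive endoderm genes together came to 6.97 to 7.90 CPM. The primitive endoderm genes were thus rare transcripts in a population labelled as stem cells. In bulk RNA, a small share of cells at a high level and a low level in every cell cannot be told apart.

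Promoter windows of 5 of the 9 genes, 8 in all, were read from the RefSeq table (GRCm38.p6). Each ran from 250 bases before to 50 bases after a start site. Gata4, Sox17 and Sox7 had no entry, and the promoter of Gata6 was not read. The windows below belong to Dab2 and Cubn, with a Foxa2 window for comparison. The responses of Dab2, Cubn and Sox7 to RA were called different between the arms, those of Cubn and Sox7 on few counts. Sox7 had no window. Capitals mark the GATA-factor words AGATAA or TGATAA on either strand.
Dab2 upstream start, chr15:6299539-6299838, plus strand: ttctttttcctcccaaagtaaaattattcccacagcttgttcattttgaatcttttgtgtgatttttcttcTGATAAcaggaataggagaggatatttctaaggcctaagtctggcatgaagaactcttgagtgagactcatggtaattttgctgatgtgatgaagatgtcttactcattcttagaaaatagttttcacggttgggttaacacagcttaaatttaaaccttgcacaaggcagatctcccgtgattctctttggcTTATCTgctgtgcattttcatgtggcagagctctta
Dab2 downstream start, chr15:6386498-6386797, plus strand: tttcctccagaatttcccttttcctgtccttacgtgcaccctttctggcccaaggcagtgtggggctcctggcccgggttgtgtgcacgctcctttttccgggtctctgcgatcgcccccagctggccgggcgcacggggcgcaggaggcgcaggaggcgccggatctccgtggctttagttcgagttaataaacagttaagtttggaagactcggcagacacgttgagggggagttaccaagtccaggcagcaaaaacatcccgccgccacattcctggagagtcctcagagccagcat
Cubn, chr2:13491827-13492126, minus strand: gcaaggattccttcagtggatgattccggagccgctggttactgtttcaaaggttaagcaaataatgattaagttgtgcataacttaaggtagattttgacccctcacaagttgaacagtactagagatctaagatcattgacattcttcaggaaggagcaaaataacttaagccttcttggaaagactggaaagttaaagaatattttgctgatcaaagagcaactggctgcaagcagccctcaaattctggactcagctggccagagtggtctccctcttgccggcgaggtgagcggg
Foxa2 downstream start, chr2:148045415-148045714, minus strand: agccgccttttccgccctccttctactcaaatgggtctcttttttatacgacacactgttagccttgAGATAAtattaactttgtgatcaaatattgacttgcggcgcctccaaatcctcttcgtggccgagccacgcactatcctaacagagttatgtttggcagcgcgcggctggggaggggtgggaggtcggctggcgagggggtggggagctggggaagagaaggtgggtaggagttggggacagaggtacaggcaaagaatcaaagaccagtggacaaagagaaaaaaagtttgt
The upstream Dab2 window held the word on both strands, with first bases at -179 and 15 relative to the start site, and the Foxa2 window held it once, at -183. Of the 8 windows 2 held it, against 18.6% of the 32851 promoters in the table. The words of the retinoic acid receptor motif, AGGTCA or GGGTCA, occurred in 1 of the 8, that of Cubn, against 27.5% of all promoters. The word ACTACAA of the ZFP143 binding motif occurred in 0 of the 8, against 3.24%. These matches describe letters in these windows.

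None of the 9 genes had a ZFP143 peak at its promoter. A promoter was taken as 2000 bp before to 1000 bp after an annotated start with the peak centre within 2000 bp, and 10.1% of 21938 protein-coding genes had a peak there. The nearest ZFP143 peak centre was 67820 bp from a start of Foxa2, 106445 bp from one of Gata4, 205580 bp from one of Dab2 and 1717299 bp from one of Sox17. CTCF, which shapes chromatin loops, had a peak at the promoters of 3 of the 9, Foxa2, Pdgfra and Amn, against 16.5% of protein-coding genes. That at Pdgfra was centred 88 bp upstream of an annotated start. Each factor had 1 peak list, so this is a description with no test.

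The endoderm transcription factors stood at higher CPM with RA in both arms. Changes below come from edgeR's quasi-likelihood fit over 15915 genes, tested against a 1.5-fold change with Benjamini-Hochberg adjustment, and a gene was called at an adjusted p under 0.01. Of the 9 genes 8 had more than 10 counts in at least 4 libraries and were tested. Gata6, Sox7 and Foxa2 passed that filter through RA libraries alone, and Cubn through DMSO + RA and dTAG alone. The counts of members and the p-values of Gata6, Sox7, Foxa2 and Cubn are therefore a description. In DMSO, 7 of the 8 were called higher, where 25.8% of all tested genes were, and 0 were called lower, where 18.1% were. In dTAG, 7 were again higher, where 25% of all were, and 0 lower, where 18.5% were. The median change of the tested members was 3.32 in DMSO and 2.22 in dTAG on the log2 scale, beside 0.03 and 0.0018 over all tested genes. Both RA libraries lay above both libraries without RA for 8 of the 9 genes in DMSO, as for 45% of tested genes, and for 8 in dTAG, as for 45.3%; Cubn lay below in dTAG, as did 45.3% of tested genes.

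Gata6, the early determinant of primitive endoderm, stood at 0.157 and 0.0573 CPM in DMSO and at 8.99 and 7.83 CPM in DMSO + RA. In dTAG it stood at 0.259 and 0.199 CPM, and in dTAG + RA at 18.3 and 20.0 CPM. Its RA libraries were far above all 4 libraries without RA in both arms, and the dTAG + RA pair lay above the DMSO + RA pair. The log2 change with RA was 6.20 ± 0.35 (SE, n = 2 per group, edgeR adjusted p = 3.16e-12) in DMSO and 6.37 ± 0.25 (adjusted p = 1.46e-14) in dTAG. Gata6 passed the count filter through RA libraries alone, so these p-values are a description. In the fit without a filter the changes were 6.17 in DMSO and 6.30 in dTAG. The DMSO group before RA held only 4 Gata6 counts, and without its replicate 1 the DMSO change was 7.06. The Gata6 locus, on chromosome 18 of mm10 (11052064 to 11085635, plus strand), overlaps 1010001N08Rik on the opposite strand; the RNA-seq kit marked strand, but whether the counting used it is not given in the sources used here, so reads of the pair cannot be told apart.

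Gata4, a partner GATA factor of parietal and visceral endoderm, was the most abundant of the 9 per kilobase of exon in every group without RA. It was at 2.99 and 3.66 CPM in DMSO, 10.6 and 9.87 in DMSO + RA, while the dTAG arm stood at 5.08 and 7.72 without RA and 21.2 and 19.1 with it. No pair of groups overlapped among these 4. The log2 change with RA was 1.63 ± 0.19 in DMSO (edgeR adjusted p = 8.99e-06) and 1.63 ± 0.16 in dTAG (adjusted p = 4.76e-07). The gene lies on chromosome 14, from 63198922 to 63271692 on the minus strand.

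Sox17, an HMG-box factor that acts after Gata6, followed the same order at a lower level. It was at 0.472 and 0.401 CPM in DMSO, 1.81 and 1.91 in DMSO + RA, while the dTAG arm stood at 1.09 and 1.11 without RA and 3.97 and 3.71 with it. Each dTAG pair lay above the DMSO pair of the same medium. The log2 change with RA was 2.06 ± 0.36 in DMSO (edgeR adjusted p = 1.91e-04) and 1.80 ± 0.25 in dTAG (adjusted p = 2.40e-05), and DESeq2 did not call the change in DMSO (adjusted p = 0.0119). Sox17, on chromosome 1 from 4490931 to 4497354 on the minus strand, overlaps Gm37587 on the opposite strand.

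Foxa2, a pioneer factor of endoderm, was at 0.210 and 0.172 CPM in DMSO and at 1.90 and 2.52 in DMSO + RA, and at 0.363 and 0.398 in dTAG and 2.81 and 2.04 in dTAG + RA. The RA pairs of the arms overlapped. The log2 change with RA was 3.46 ± 0.45 in DMSO (edgeR adjusted p = 2.77e-06) and 2.64 ± 0.35 in dTAG (adjusted p = 6.64e-06). As Foxa2 passed the count filter through RA libraries alone, these p-values are a description. Without a filter the changes were 3.43 in DMSO and 2.57 in dTAG. Pdgfra, the receptor for PDGF, was at 0.472 and 0.859 CPM in DMSO and 6.17 and 5.92 in DMSO + RA, and at 1.09 and 0.756 in dTAG and 7.90 and 5.62 in dTAG + RA. Its arms overlapped both before and after RA, and its log2 change with RA was 3.19 ± 0.31 in DMSO and 2.89 ± 0.27 in dTAG (edgeR adjusted p = 4.34e-08 and 2.97e-08). Pdgfra lies on chromosome 5 from 75152292 to 75198215 on the plus strand, over Gm42802 and Gm42803 on the opposite strand and Mir7025 on its own; Foxa2 lies on chromosome 2 from 148042877 to 148046969 on the minus strand.

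**Figure D1:**
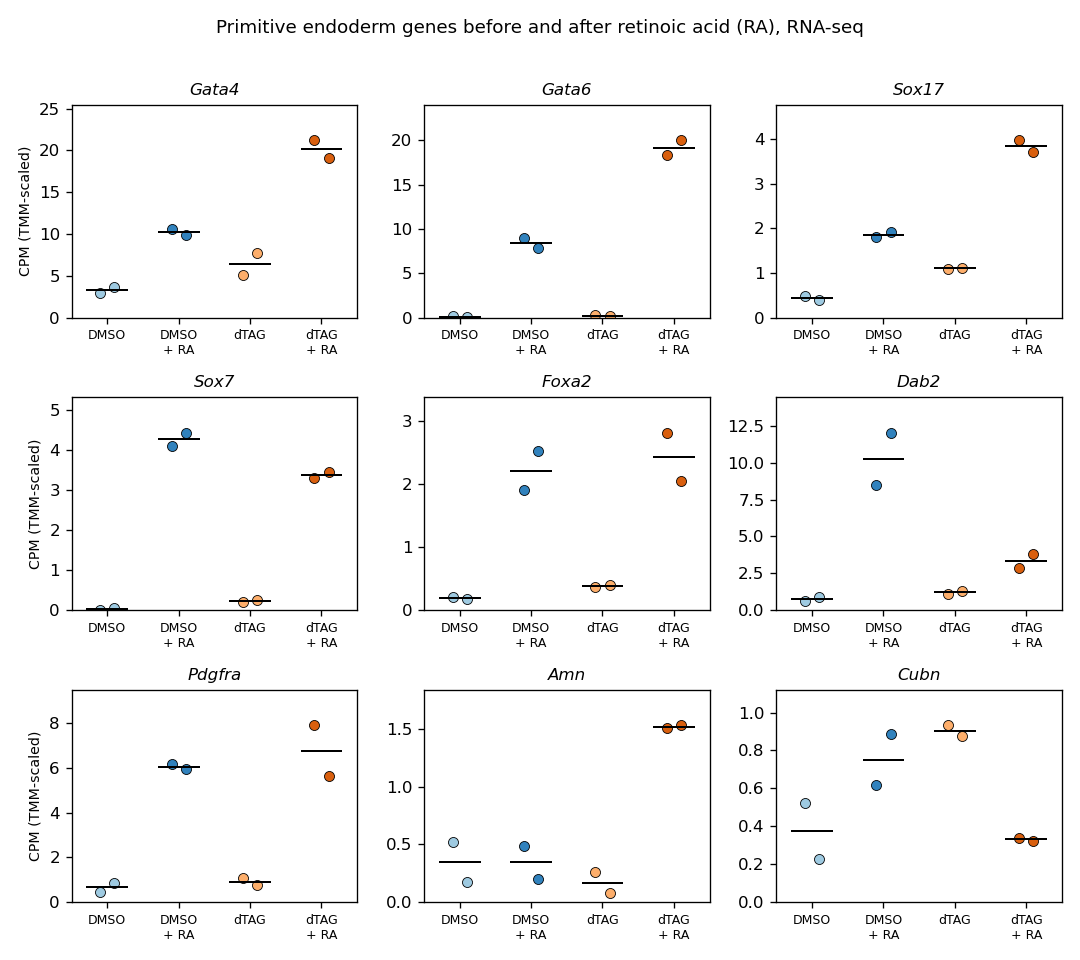
CPM (TMM-scaled, linear axis from 0) of the 9 genes in the RA experiment, 1 point per library and a bar for the mean of the 2 libraries of a group; the vertical scale differs between panels. Gata4, Gata6 and Sox17 are highest in dTAG + RA, Dab2 is highest in DMSO + RA at 8.51 and 12.1 CPM, and Amn stands above 1 CPM in the dTAG + RA libraries alone.

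The RA effect of Dab2, which exceeded 10 counts in all 8 libraries, differed between the arms, and those of Cubn and Sox7 were called different on few counts. The difference of the log2 changes, dTAG minus DMSO, was tested as an interaction and called at an edgeR adjusted p under 0.05 with a difference over 0.5; 3 of the 8 tested members were called lower, where 18% of all tested genes were, and 0 higher, where 13.7% were. As Cubn and Sox7 entered the test through the groups where they were high, and Amn, with a difference in the other direction, did not enter it, the count of 3 is a description. The remaining 5 were not called, and their differences ranged from -0.81 for Foxa2 to 0.18 for Gata6. For Gata4 the difference was 0.0037 with an SE of 0.26.

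Dab2, the clathrin adaptor that is among the best known products of extraembryonic endoderm, was at 0.629 and 0.859 CPM in DMSO and at 8.51 and 12.1 in DMSO + RA. In dTAG it was at 1.09 and 1.31 CPM, and in dTAG + RA at 2.86 and 3.81. The dTAG pair was above the DMSO pair before RA and below it after RA, with no overlap either time. The log2 change with RA was 3.77 ± 0.28 in DMSO (edgeR adjusted p = 5.80e-10) and 1.46 ± 0.28 in dTAG (adjusted p = 0.00145), and the difference was -2.31 ± 0.43 (adjusted p = 2.15e-04). The rise in dTAG was not called by DESeq2 (adjusted p = 0.0231) or without dTAG replicate 1 (adjusted p = 0.0140) or dTAG + RA replicate 2 (adjusted p = 0.0196). The Dab2 locus, on chromosome 15 from 6299788 to 6440712 on the plus strand, overlaps Gm16311 and Gm18888 on the opposite strand.

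Sox7, the factor of parietal endoderm that shares an HMG box with Sox17, had 0 counts and 1 count in the DMSO libraries and 4.10 and 4.43 CPM in DMSO + RA. It was at 0.208 and 0.239 CPM in dTAG and 3.29 and 3.43 in dTAG + RA. The arms ended close together after RA and stood apart before it. From the summed counts, 158 against 1, the ratio with RA in DMSO was 154 (95% exact binomial interval 27.3 to 6139, counting error only), and in dTAG it was 14.9 (7.89 to 31.8), from 142 against 10. The fitted difference of -3.12 ± 1.12 (edgeR adjusted p = 0.0195) rests on the single count in DMSO: it was -2.20 without DMSO replicate 1 (adjusted p = 0.129) and -5.57 without DMSO replicate 2, and DESeq2 did not call it (adjusted p = 0.0870).

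Cubn, which encodes the ligand-binding subunit of the receptor, was at 0.524 and 0.229 CPM in DMSO and 0.617 and 0.885 in DMSO + RA, and at 0.934 and 0.876 in dTAG and 0.339 and 0.325 in dTAG + RA. Neither change with RA was called: it was 0.91 ± 0.49 in DMSO (edgeR adjusted p = 0.225) and -1.42 ± 0.45 in dTAG (adjusted p = 0.0269). The difference between them was -2.34 ± 0.66 (edgeR adjusted p = 0.00644), and 0.00285 was its adjusted p in the fit without a filter, but neither DESeq2 (adjusted p = 0.0653) nor edgeR with the thresholds exchanged between tables (0.0315) called it, and Cubn had passed the count filter only through the groups where it was high. At most 22 counts stood behind any of these libraries. The Cubn gene, on chromosome 2 from 13276338 to 13491813 on the minus strand, overlaps Gm13270 on the opposite strand along 49490 bp.

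Amn, which encodes the membrane anchor of cubilin, did not pass the filter, and 64 of its 98 counts in the RA experiment lay in dTAG + RA. It was at 0.524 and 0.172 CPM in DMSO, 0.485 and 0.204 in DMSO + RA, while the dTAG arm stood at 0.259 and 0.0796 without RA and 1.50 and 1.53 with it. In the fit without a filter its log2 change with RA was 3.14 in dTAG (edgeR adjusted p = 1.23e-07) and 0.04 in DMSO, and the difference was 3.09 (adjusted p = 9.37e-04). The subunits of cubam stood in opposite order after RA. Both Amn libraries of dTAG were above those of DMSO, as for 40% of tested genes, and both Cubn libraries were below, as for 39.5%. The Cubn change between the arms after RA was not called (-1.11 ± 0.48, edgeR adjusted p = 0.224). The ratio of summed counts, dTAG over DMSO after RA, was 4.05 for Amn (95% interval 2.25 to 7.82) and 0.459 for Cubn (0.223 to 0.907).

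**Figure D2:**
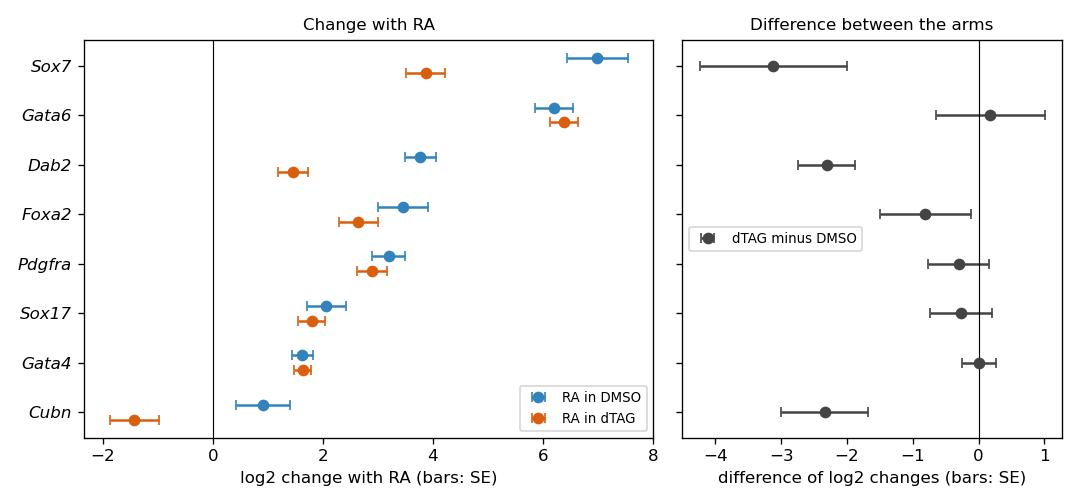
Left, log2 change with RA (horizontal axis) of the 8 tested genes in DMSO and in dTAG, with bars for the SE of the fit; right, the difference between the arms with its SE. The pairs of points for Gata6, Gata4 and Sox17 lie close together, while Dab2, Cubn and Sox7 are lower in dTAG; the Sox7 point in DMSO rests on 1 count before RA.

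The arms were also compared directly, with the same libraries as the tests above. Before RA none of the 8 was called in either direction, where 2.74% of tested genes were called higher and 3.66% lower, yet 7 of the 9 had both dTAG libraries above both DMSO libraries, as did 40.6% of tested genes. After RA 4 of the 9 had both dTAG libraries above, as did 40% of tested genes, and 3 had both below, as did 39.5%. Their log2 changes before RA included 0.97 ± 0.20 for Gata4 (edgeR adjusted p = 0.0950) and 1.32 ± 0.39 for Sox17 (adjusted p = 0.101). Tested at an adjusted p under 0.05 with a change over 0.5, Gata4, Sox17, Sox7 and Cubn were called higher, where 14.5% of tested genes were. After RA 1 was called higher, Gata6, where 9.1% of tested genes were, and 1 lower, Dab2, where 7.36% were. Gata6 changed by 1.18 ± 0.14 (edgeR adjusted p = 3.85e-04, and 0.0264 in DESeq2, above its threshold) and Dab2 by -1.60 ± 0.21 (adjusted p = 8.95e-05). Gata4 was at 0.97 ± 0.15 (adjusted p = 0.0123) and Sox17 at 1.05 ± 0.23 (adjusted p = 0.0372), neither called; with library size alone as the scale both were.

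Levels after RA were also compared between genes per kilobase of exon. In DMSO + RA the mean CPM per kb was 2.62 for Gata4, 1.40 for Dab2, 1.29 for Gata6, 1.29 for Sox7, 0.931 for Foxa2, 0.603 for Pdgfra, 0.389 for Sox17, 0.187 for Amn and 0.0503 for Cubn. Dab2, Gata6 and Sox7 did not differ beyond their spread. In dTAG + RA it was 5.16 for Gata4, 2.94 for Gata6, 1.02 for Foxa2, 1.02 for Sox7, 0.823 for Amn, 0.805 for Sox17, 0.674 for Pdgfra, 0.454 for Dab2 and 0.0222 for Cubn. Foxa2 and Sox7, Amn and Sox17, and Sox17 and Pdgfra did not differ beyond their spread there. Dab2, at 1.40 ± 0.34 (SD, n = 2) in DMSO + RA, was at 0.454 ± 0.091 in dTAG + RA.

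Over depletion in stem cell medium, without RA, edgeR called Gata4, Sox17, Pdgfra and Cubn higher at 48 h. At 72 h it called Sox17, Pdgfra and Dab2. DESeq2 called none of these at 48 h and Dab2 alone at 72 h. The RNA-seq course was tested over 13925 genes with the same thresholds. Only Gata4, Sox17, Dab2, Pdgfra and Cubn were tested, and Sox17, Pdgfra and Cubn passed the filter through dTAG libraries alone. The counts of members and the p-values of Sox17, Pdgfra and Cubn against DMSO are therefore again a description. At 24 h 0 were called in either direction, where 2.32% of tested genes were called higher and 3.41% lower; 2 of the 5, Cubn and Sox17, had an unadjusted p under 0.05. At an adjusted p under 0.05 with a change over 0.5, and no fold change in the test, Gata4, Sox17 and Cubn were called higher at 24 h, where 11.4% of tested genes were. At 48 h 4 were called higher, where 10.5% of all were, and at 72 h 3, where 13.7% were; none was called lower at either time, where 7.71% and 12% were. Both dTAG libraries lay above both DMSO libraries for 5 of the 9 genes at 24 h, 8 at 48 h and 8 at 72 h, as for 36.7%, 41.5% and 43.3% of tested genes, and Amn lay below at 24 h, as did 34.5%. These comparisons share the DMSO pair, whose libraries held 1 and 13 counts of Dab2 and 4 counts of Sox17 in sum.

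Sox17 was at 0.183 and 0.142 CPM in DMSO, and under depletion at 0.725 and 0.819 after 24 h, 0.878 and 1.42 after 48 h and then 1.48 and 1.36 after 72 h. All 6 dTAG libraries lay above both DMSO libraries. The log2 change was 2.75 ± 0.64 at 48 h (edgeR adjusted p = 0.00288) and 3.06 ± 0.61 at 72 h (adjusted p = 3.53e-04), and DESeq2 called neither (adjusted p = 0.118 and 0.0347). Without DMSO replicate 1, DMSO replicate 2 or 48 h replicate 2 the call at 48 h was also lost.

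Pdgfra was at 0.458 and 0.498 CPM in DMSO, and under depletion at 0.886 and 1.00 after 24 h, 1.52 and 2.13 after 48 h and then 2.40 and 2.18 after 72 h. Each group lay above the one before it. The log2 change was 1.89 ± 0.44 at 48 h (edgeR adjusted p = 0.00459), a call lost without either DMSO library or 48 h replicate 2, and 2.22 ± 0.41 at 72 h (adjusted p = 3.14e-04). DESeq2 called neither (adjusted p = 0.222 and 0.0445).

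Dab2 was at 0.0917 and 0.925 CPM in DMSO, and under depletion at 0.806 and 0.455 after 24 h, 1.52 and 1.15 after 48 h and then 3.14 and 3.61 after 72 h. Its DMSO and 24 h libraries overlapped, and the 72 h pair lay above all other libraries. The log2 change at 72 h was 2.59 ± 0.43 (edgeR adjusted p = 6.28e-05), and it depended on the uneven DMSO pair: it was 1.87 without replicate 1 and 5.06 without replicate 2. Between 24 h and 72 h, a comparison without DMSO libraries, Dab2 rose by 2.39 ± 0.42 (adjusted p = 3.24e-04) and was the 1 of 5 tested members called, where 7.53% of all genes were called higher and 6.6% lower; that call was lost without 24 h replicate 2 (adjusted p = 0.0136) and in DESeq2 (adjusted p = 0.0432).

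Gata4 and Cubn were highest at 48 h. Gata4 was at 5.32 and 5.83 CPM in DMSO, and under depletion at 8.86 and 8.01 after 24 h, 11.9 and 12.0 after 48 h and then 9.04 and 9.05 after 72 h. Its log2 change was 1.09 ± 0.15 at 48 h (edgeR adjusted p = 0.00147, and 0.0133 without DMSO replicate 1) and 0.69 ± 0.16 at 72 h (adjusted p = 0.259). Cubn was at 0.275 and 0.0711 CPM in DMSO, and under depletion at 1.05 and 1.00 after 24 h, 1.76 and 1.07 after 48 h and then 0.922 and 0.612 after 72 h. Its change was 2.60 ± 0.69 at 24 h (adjusted p = 0.0231), 3.07 ± 0.64 at 48 h (adjusted p = 8.21e-04) and 2.15 ± 0.74 at 72 h (adjusted p = 0.0360). With a library left out it ranged from 1.86 to 3.67 at 24 h and from 1.41 (without DMSO replicate 2) to 3.22 at 72 h. The 48 h value of Cubn was 2.33 without DMSO replicate 2, where the call was lost (adjusted p = 0.0318), and 4.15 without DMSO replicate 1; without 48 h replicate 1 the call was lost too (adjusted p = 0.0243). DESeq2 called neither gene at 48 h (adjusted p = 0.170 for Gata4 and 0.0569 for Cubn).

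The untested members had few counts in DMSO, 1 or 2 per library for Sox7 and Foxa2, 1 and 0 for Gata6 and 3 in each for Amn; 3 counts correspond to 0.204 to 0.277 CPM. Sox7 was at 0.0917 and 0.0711 CPM in DMSO, and under depletion at 0.161 and 0.00 after 24 h, 0.240 and 1.51 after 48 h and then 1.29 and 1.90 after 72 h, with the 48 h libraries far apart. From 42 summed counts at 72 h and 2 in DMSO its ratio was 20.5 (95% interval 5.34 to 175). Gata6 was at 0.0917 and 0.00 CPM in DMSO, and under depletion at 0.483 and 0.182 after 24 h, 0.559 and 0.533 after 48 h and then 1.01 and 0.340 after 72 h, a ratio of 15.6 at 72 h (2.43 to 656) from 16 counts against 1. Foxa2 was at 0.183 and 0.142 CPM in DMSO, and under depletion at 0.161 and 0.364 after 24 h, 0.399 and 0.533 after 48 h and then 0.738 and 0.408 after 72 h, a ratio of 3.42 (1.07 to 14.3) at 72 h. Amn was at 0.0806 to 0.639 CPM over the 8 libraries, with no order by time. In the fit without a filter Gata6 and Sox7 were called higher at 72 h, with edgeR adjusted p = 0.00822 and 7.96e-07, and Sox7 also at 48 h (adjusted p = 0.00245).

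**Figure D3:**
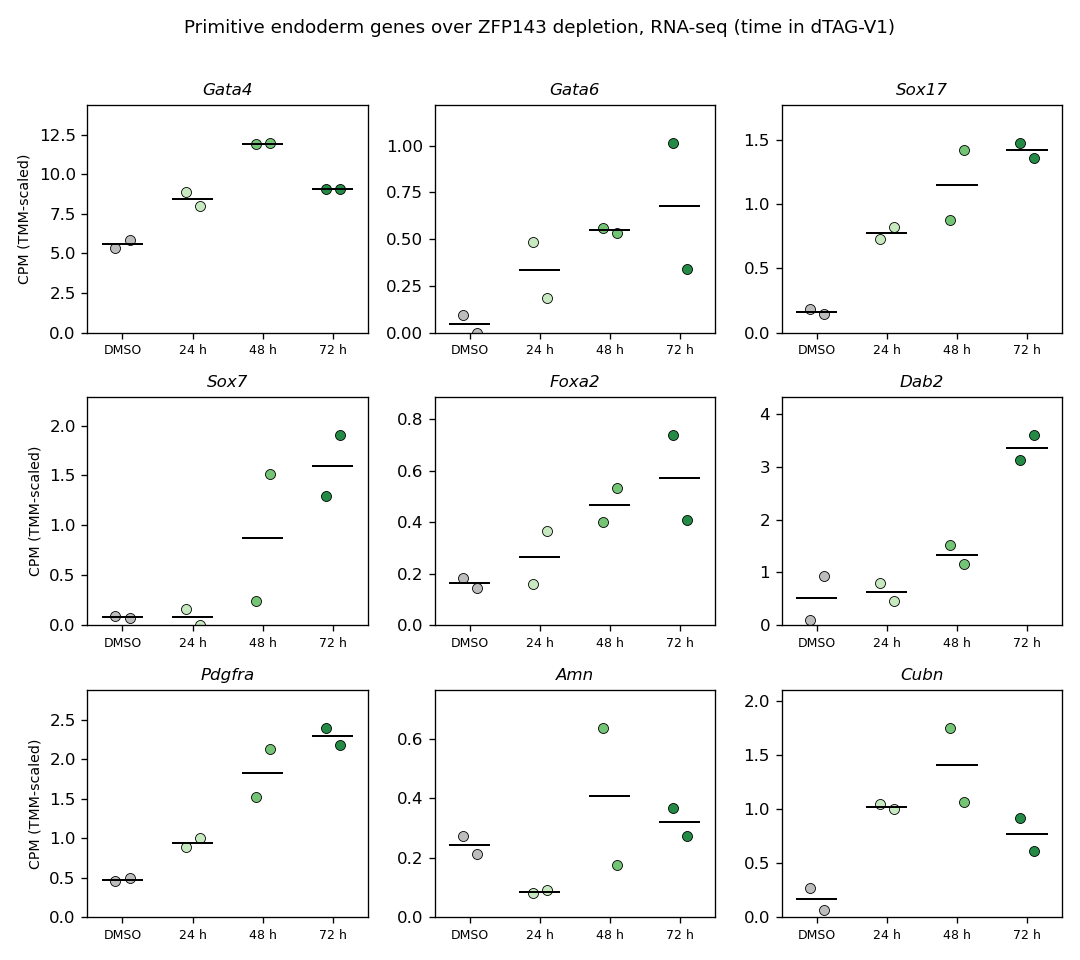
CPM (TMM-scaled, linear axis from 0) of the 9 genes with DMSO and with dTAG-V1 for 24 h, 48 h or 72 h, 1 point per library and a bar for the group mean. Dab2 and Sox7 are highest at 72 h, Gata4 at 48 h with 11.9 and 12.0 CPM, and Amn shows no order by time.

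In newly made RNA none of the tested genes was called in the first hours, and Cubn was called at 24 h. TT-seq was tested over 17870 genes by edgeR's quasi-likelihood test and called at an adjusted p under 0.05 with a log2 change over 0.5. Gata4, Gata6, Dab2, Pdgfra and Cubn were tested. Cubn passed the filter through 6 h and 24 h libraries alone, so its call at 24 h is a description. At 2 h 0 of the 5 were called in either direction, where 0.168% of tested genes were called higher and 2.43% lower, and 0 had an unadjusted p under 0.05. At 6 h 0 were called, where 0.397% and 2.83% were, and 1, Pdgfra, had an unadjusted p under 0.05. DESeq2 called 0 at both times, but it gave no adjusted p for Gata6 and Cubn, so these could not be called. At 24 h 1 was called higher, Cubn, where 2.02% of all were, and 0 lower, where 4.09% were. Both dTAG libraries lay above both DMSO libraries for 1 of the 9 genes at 2 h, 3 at 6 h and 7 at 24 h, as for 18.6%, 23.4% and 23.8% of tested genes; Amn lay below at 2 h and 6 h, as did 20.6% and 23.7%.

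Cubn in TT-seq was at 0.722 and 0.532 CPM in DMSO, and under depletion at 0.636 and 0.541 after 2 h, 1.09 and 0.906 after 6 h and then 2.35 and 2.57 after 24 h. The 24 h pair lay above the other 6 libraries. Its log2 change at 24 h was 1.98 ± 0.37 (edgeR adjusted p = 0.0180); in DESeq2 its adjusted p was not given, and without any 1 of the DMSO or 24 h libraries it was between 0.0521 and 0.0832. Dab2 was at 1.44 and 1.82 CPM in DMSO, and under depletion at 2.30 and 1.80 after 2 h, 3.11 and 2.22 after 6 h and then 3.23 and 5.91 after 24 h. The 24 h pair lay above all others, with 1.48 ± 0.39 and an adjusted p of 0.0607, not called; with the replicate number as a block it was called (1.48, edgeR adjusted p = 0.0305).

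Pdgfra in TT-seq was at 1.34 and 1.75 CPM in DMSO, and under depletion at 1.83 and 2.64 after 2 h, 2.33 and 3.63 after 6 h and then 3.53 and 3.10 after 24 h, with every dTAG library above both DMSO libraries. Its change of 0.93 ± 0.37 at 6 h (edgeR adjusted p = 0.234) and of 1.08 ± 0.36 at 24 h (adjusted p = 0.126) was not called. Gata4 was at 10.2 and 6.46 CPM in DMSO, and under depletion at 11.3 and 6.61 after 2 h, 14.0 and 8.49 after 6 h and then 15.1 and 13.7 after 24 h, with replicate 1 above replicate 2 in every group and both 24 h libraries above both DMSO libraries. Gata6 was at 0.722 and 0.912 CPM in DMSO, and under depletion at 0.954 and 0.841 after 2 h, 0.777 and 0.412 after 6 h and then 1.27 and 1.67 after 24 h. The changes of Gata4 and Gata6 at 24 h were 0.80 ± 0.35 and 0.84 ± 0.42 (adjusted p = 0.232 and 0.287), and with the replicate block Gata4 was called (0.84, edgeR adjusted p = 0.0282). Sox17 was at 0.00 to 0.159 CPM in the libraries up to 6 h and at 0.392 and 0.606 at 24 h, 12 summed counts against 2 in DMSO and a ratio of 5.86 (95% interval 1.30 to 53.9). Sox7, Foxa2 and Amn stayed at 0.454 CPM or less in every library, near the 0.180 to 0.309 CPM of 3 counts.

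**Figure D4:**
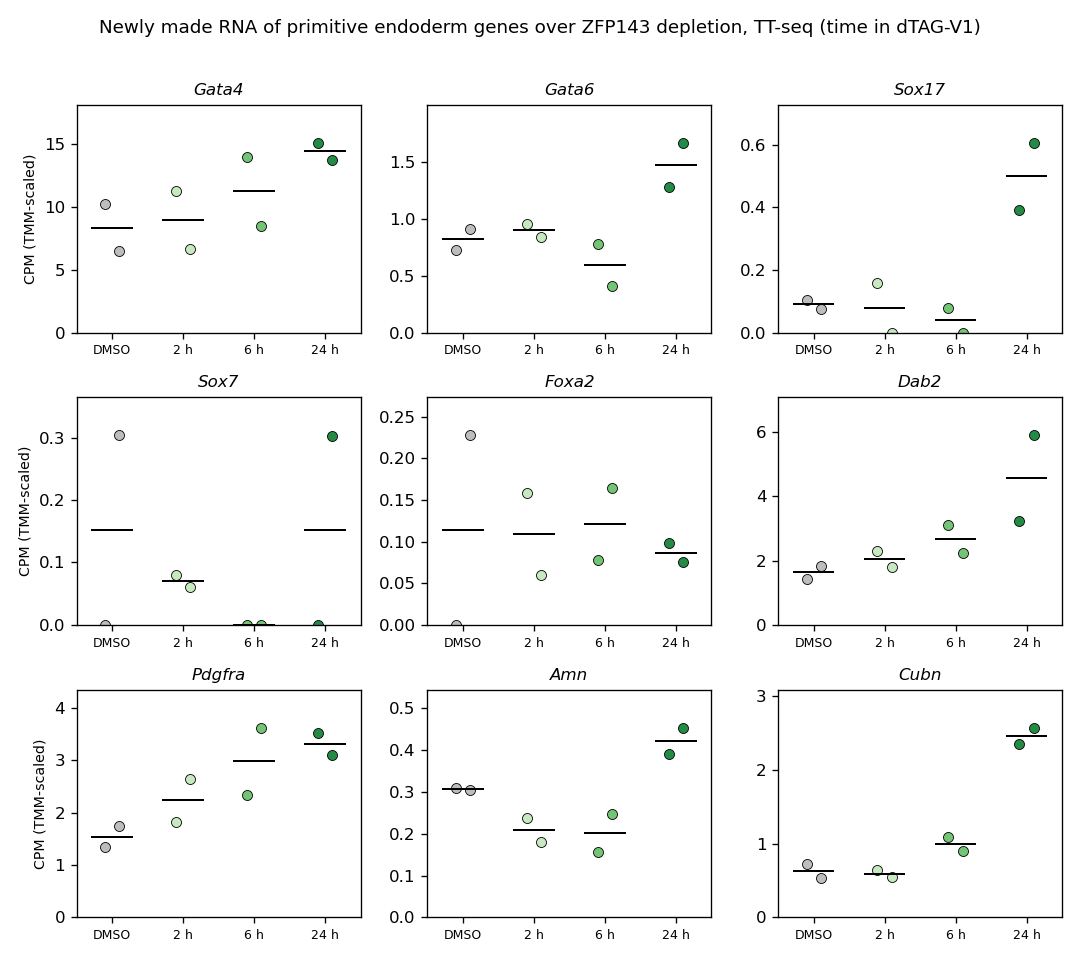
CPM (TMM-scaled, linear axis from 0) of the 9 genes in TT-seq with DMSO and with dTAG-V1 for 2 h, 6 h or 24 h, 1 point per library and a bar for the group mean. Cubn rises from 0.722 and 0.532 to 2.35 and 2.57 CPM, and Gata4 from 10.2 and 6.46 to 15.1 and 13.7 CPM.

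Other genes of the lineage and its signals were counted in the same experiments. Of 18 other visceral endoderm genes 10 were tested in the RA table, and 8 were called higher with RA in DMSO and 9 in dTAG, with 0 lower in either, beside 25.8% higher and 18.1% lower of all tested genes in DMSO and 25% and 18.5% in dTAG; the medians were 3.31 and 2.51 on the log2 scale. Rbp4, which encodes the plasma carrier of retinol, was at 4.53 ± 0.24 in DMSO and 3.11 ± 0.18 in dTAG. Lrp2, the megalin receptor that works with cubilin and Dab2, rose from 9.53 to 165 CPM in DMSO and from 23.5 to 109 CPM in dTAG (edgeR adjusted p = 2.13e-18 and 2.02e-14). Over depletion alone Lrp2 rose from 2.65 CPM in DMSO to 15.5 CPM at 72 h (log2 change 2.54 ± 0.18, adjusted p = 4.19e-11), and it was 1 of 2 called higher among the 4 visceral genes tested there, where 13.7% of all were; Hnf4a (adjusted p = 0.0411) and Amot (-0.05 ± 0.19) were not called.

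Of 14 other parietal endoderm genes 13 were tested, and 5 were called higher and 6 lower with RA in DMSO, 6 and 5 in dTAG. Col4a2, a chain of basement membrane collagen, was at 4.18 ± 0.11 in DMSO, and Vim was at -1.95 ± 0.09. Over depletion alone Col4a2 went from 0.789 to 21.0 CPM and its partner chain Col4a1 from 1.42 to 62.1 CPM at 72 h, where 5 of 14 tested parietal genes were called higher and 1 lower, beside 13.7% and 12% of all tested genes. Of 19 FGF and ERK pathway genes 18 were tested, and 9 were called higher and 3 lower with RA in either arm. Fgf4, the ligand that drives primitive endoderm in the embryo, fell from a mean of 303 to 36.0 ± 25.4 CPM (SD, n = 2) in DMSO and from 253 to 38.7 in dTAG (edgeR adjusted p = 2.27e-09 and 1.33e-08), and over depletion alone from 433 to 136 CPM at 72 h (adjusted p = 1.60e-19). At 72 h 4 of the 15 tested there were called higher and 5 lower, beside the same 13.7% and 12%: the receptor genes Fgfr2 and Fgfr4 were at 1.37 ± 0.15 and 2.77 ± 0.32, and Fgfr1 was at -0.97 ± 0.05 (adjusted p = 2.88e-08). Of the 12 endocytic receptor partners, Lrp2 among them, 3 were called higher and 2 lower with RA in DMSO and 4 and 2 in dTAG, beside 25.8% and 18.1% of all tested genes in DMSO and 25% and 18.5% in dTAG.

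Markers of other lineages moved as well. With RA in DMSO 6 of 8 tested mesoderm markers, 5 of 7 neural, 3 of 7 trophectoderm and 2 of 9 definitive endoderm and mesendoderm markers were called higher, beside 1, 2, 2 and 5 lower; in dTAG the counts were 7, 4, 5 and 3 higher beside 0, 2, 1 and 3 lower. Of all tested genes 25.8% were higher and 18.1% lower in DMSO, and 25% and 18.5% in dTAG. Over depletion alone 4 of 6 tested neural markers were called higher and 2 lower at both 48 h and 72 h, where 10.5% and 7.71% of all tested genes were higher and lower at 48 h and 13.7% and 12% at 72 h. Of 3 tested mesoderm markers 2 were higher at 48 h and 1 at 72 h, and of 12 pluripotency markers 4 were lower and 1 higher at both times. The summed level of the 10 definitive endoderm and mesendoderm markers went from 665 to 731 CPM in DMSO to 66.4 to 71.5 CPM in DMSO + RA, and Trh alone went from 577 to 7.00. All 12 pluripotency markers were called lower with RA in each arm, with medians of -3.53 and -2.34, and 10 of 12 were called with a higher RA effect in dTAG and 0 with a lower one, where 13.7% and 18% of all tested genes were; their sum after RA was 789 to 1156 CPM in DMSO and 1489 to 1761 CPM in dTAG. The part of these shifts in the values of the 9 genes was not tested.

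The genes whose pattern over the 8 libraries of the RA experiment was most like that of each tested member are named by Pearson's r of log2 CPM, with no p; the libraries fall into groups with and without RA, which all of them share. They were Fcgbp, Usp17ld and Gfpt1 for Gata6, Kctd1, Ica1 and Tmem117 for Gata4, Pramel1, Fbn1 and Wipf3 for Sox17, and Trf, Efs and Sdk2 for Sox7. For Foxa2 they were Gm15545, Vps36 and Tmed3, for Pdgfra Laptm4b, Rflnb and Gsn, and for Dab2 F2r, Etfbkmt and Dhrs3. All of these had r of 0.993 or more, while those of Cubn, Kif24, Gm13147 and Fgfr1op2, had r of 0.960 to 0.968.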

How the data were processed

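Gene-level read counts of 24 libraries were used: TT-seq and RNA-seq over ZFP143 depletion and RNA-seq with RA. The authors deposited raw counts per gene, made with STAR on mm10 with GENCODE vM25 annotation. The start sites, gene positions, overlaps and exon lengths used here came from an earlier GENCODE release. RNA-seq was counted by STAR and TT-seq by HTSeq, after duplicate removal and by strand. The ZFP143 peak list, deposited with fold enrichment over input and with -log10 p and q values, and the CTCF list of positions came from MACS2. TMM scaling, the quasi-likelihood fit of 4 groups per table and the threshold test were run in edgeR 4.0.16 under R 4.3.3, with DESeq2 1.42.0 as an alternative. A gene was tested where 4 or more of the 8 libraries exceeded 10 counts, 15915, 13925 and 17870 in the RA, depletion and TT-seq tables. Replicate differences correlated at 0.20 to 0.65 between all TT-seq groups, a pairing seen in the data and not stated in the labels, so TT-seq calls that a replicate block changed are given with it. The function was tested on simulated data. Ratios of summed counts carry 95% exact binomial intervals, which cover counting error only. The study's methods describe 2 replicates per group, and p-values measure the spread between them. The genes and marker lists were chosen with earlier results of these data known. All 9 genes are named in every library; of the other lists at most 3 genes at each extreme of change were named, and for likeness the 3 genes with the highest r among those at 10 CPM or more. Alternatives were DESeq2 size factors, library size alone, DESeq2, no filter, a replicate block, the thresholds exchanged between the tests, leaving out each library, and a peak window of 10000 bp.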

Additional observations from a re-analysis of the deposited data

Results flagged for a closer look

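For 3 of the 8 tested members edgeR's test of the interaction called a lower effect of RA in the dTAG arm than in the DMSO arm. Of all tested genes 18% were called lower and 13.7% higher. The difference of log2 changes, dTAG minus DMSO, was -2.31 for Dab2 (adjusted p = 2.15e-04), -2.34 for Cubn (adjusted p = 0.00644) and -3.12 for Sox7 (adjusted p = 0.0195). Cubn and Sox7 passed the count filter only through the groups where they were high; without a filter both were called (adjusted p = 0.00285 and 0.0156), but not by DESeq2 (0.0653 and 0.0870) or with the exchanged thresholds (0.0315 and 0.0666). After RA both dTAG libraries were below both DMSO libraries for each of the 3 genes, as for 39.5% of tested genes. Before RA both were above, as for 40.6%. The 3 genes were picked by a lower RA effect in dTAG, which favours this order, so it is a description. For Sox7 the gap before RA rests on 0 and 1 counts against 4 and 6 and was not called (adjusted p = 0.147), nor was that after RA (-0.33 on the log2 scale). The cause of these differences was not tested.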

How the results depend on the processing

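Of 192 counts of called members with a library left out, 183 kept their value within 1.5 times, and of 146 under the other alternatives 122 did. Leaving out a library gave 0 to 1 called higher in TT-seq at 24 h, 1 to 4 at 48 h, 0 to 1 between 24 h and 72 h, and 1 to 2 in dTAG against DMSO after RA. DESeq2 called 0 higher in TT-seq at 24 h, 0 at 48 h, 1 at 72 h, 0 between 24 h and 72 h, 0 in dTAG against DMSO after RA, and 1 lower in the interaction. In TT-seq it gave no adjusted p for Gata6 and Cubn. Without a filter the members called higher were 2 in TT-seq at 24 h, 1 at 24 h in RNA-seq, 5 at 72 h, 2 between 24 h and 72 h, 2 in dTAG against DMSO after RA and 1, Amn, in the interaction. With the thresholds exchanged they were 0 in TT-seq at 24 h, 3 at 24 h in RNA-seq, 5 at 72 h, 2 between 24 h and 72 h, 4 in dTAG against DMSO before RA and 3 after it, and members called lower were 2 after RA, 1 with RA in dTAG and 1 in the interaction. The exchange also raised the share of all tested genes called higher. It went from 2.32% to 11.4% at 24 h in RNA-seq and from 2.74% to 14.5% before RA. Shares of all genes for the other counts above are not given here, so the counts of members are a description. After RA, DESeq2 size factors gave 2 higher and library size alone 3. Of the 15915 tested genes 1523 and 2089 were called higher there, against 1449 in the main fit. Library size alone moved the median of all tested genes by up to 0.39 (RA in dTAG, 0.0018 to 0.39), and over the 8 RNA-seq comparisons between groups the share of all calls that were higher went from between 40.5% and 58.8% to between 56.3% and 78.2%; among the listed genes it turned no direction. With the replicate block, TT-seq at 24 h gave 3 members called higher in place of 1, Gata4, Dab2 and Cubn. Replicate differences correlated at -0.15 to 0.17 in the RNA-seq tables, and the block changed no other call of a member.

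Single-gene values that turned direction were all uncalled. With a library left out, they ranged in TT-seq at 2 h from -0.33 to 0.47 for Gata4, -0.024 to 0.32 for Gata6 and -0.29 to 0.14 for Cubn, and at 24 h in RNA-seq from -0.52 to 2.67 for Dab2. After RA they ranged from -0.058 to 0.40 for Foxa2 and -0.084 to 0.40 for Pdgfra, and in the interaction from -0.24 to 0.36 for Gata4, -0.69 to 0.68 for Gata6 and -0.77 to 0.082 for Pdgfra; without a filter Gata4 in the interaction was -0.050. The wider peak window gave 0 genes with a ZFP143 peak and 4 with a CTCF peak. Of the 9 genes 8 had 15 counts or fewer in every RNA-seq library with DMSO and no RA, so changes from there are limited by depth.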
